A study of Mus musculus with 42 samples.

Results

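The transcripts described here are 5 genes of the Dlk1-Meg3 imprinted cluster on mouse chromosome 12: Meg3, Rian, Mirg, Rtl1 and Dlk1. They were chosen by name from a count table of 54232 genes, in which all 5 were found, and their levels were followed over the 8 groups of the study. The list names no comparison and no threshold, and it was drawn up with earlier results of these data known. Which values led to it is not recorded, so every fold change and adjusted p of a member below is a description that supports nothing by itself. The annotation (GENCODE M21 on GRCm38) places 122 genes from Begain to Dio3, of which 69 are miRNA genes and 23 are snoRNA genes, and 8 of the 122 had at least 10 counts in 5 or more libraries. These 8 were the 5 members, Begain, Dio3 and the processed pseudogene Gm3379.

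The study compared diet and the peptide NaKtide in mouse brain. NaKtide is a peptide that inhibits Src kinase signalling through the sodium-potassium pump (Na,K-ATPase), and here it was made from a transgene switched on by doxycycline. Total RNA from flash-frozen tissue labelled cerebellum or hippocampus was made into libraries with a strand-specific kit that keeps polyadenylated RNA. Mice ate for 12 weeks either a control chow of 11% fat with 27.0% protein and 62% carbohydrate, or a western diet of 42% fat with 15.2% protein and 42.7% carbohydrate. The NaKtide mice received the same diets with doxycycline at 300 mg/kg. The labels do not say whether the mice without NaKtide carried the transgene or received doxycycline, which promoter drives the transgene, or the strain, sex and age of the mice. The series' own design text describes other tissues as well, so the groups used here rest on the sample labels alone. Each label has 4 groups: control diet, control diet with NaKtide, western diet, and western diet with NaKtide. Hippocampus control and hippocampus western diet with NaKtide have 6 libraries each and the other 6 groups have 5 each, for 42 libraries. Nothing in the labels ties each library to a separate animal, so the p-values below measure only the spread between these libraries, which may be technical.

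The libraries held between 4669374 and 9521002 counts, and 14665 to 16345 genes had 10 or more. The tissue labels were only partly matched by marker genes. Gabra6, the receptor subunit that defines cerebellar granule cells, was under 1 CPM (counts scaled to a common library total) in 15 of 20 libraries labelled cerebellum and in 21 of 22 labelled hippocampus. The summed level of 8 cerebellar granule markers had a median of 82.6 CPM under the cerebellum label and 71.6 CPM under the hippocampus label, and 3 of 20 cerebellum libraries lay above every hippocampus library. The 8 dentate granule markers of the hippocampus had medians of 136 CPM under the hippocampus label and 97.1 CPM under the cerebellum label. The words hippocampus and cerebellum are therefore used below as the labels of the libraries, not as a checked tissue. Hippocampus control replicates 5 and 6 were the most alike pair of any group, with a mean chi-square per gene of 2.45 against 7.69 for the next pair. They still differed by more than sampling noise, which does not tell whether they share an animal. They were kept apart, and summing their counts was an alternative setting.

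Genomic imprinting leaves a gene active on only the copy inherited from 1 parent. In this cluster the coding genes Dlk1 and Rtl1 are read from the paternal copy, and the non-coding RNAs Meg3, Rian and Mirg are read in one direction from the maternal copy, under the control of a region between Dlk1 and Meg3 that is methylated on the paternal copy. Meg3 is a long RNA kept mainly in the nucleus, Rian carries small nucleolar RNAs, Mirg carries a large group of microRNAs, and in adult brain the non-coding members are most abundant in neurons. Dlk1 encodes a membrane protein of the Notch ligand family that can act as a Notch inhibitor, and Rtl1 encodes a protein derived from a retrotransposon. An antisense RNA across Rtl1, also maternal, is the source of microRNAs fully complementary to the Rtl1 message.

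On GRCm38, Dlk1 lies at chr12:109452823-109463336 and Meg3 at chr12:109541001-109571726, both on the plus strand and 77.664 kb apart. Rtl1 lies at chr12:109589193-109600330 on the minus strand. Rian follows at chr12:109603940-109661716 and Mirg at chr12:109729764-109749460, both on the plus strand, with 32.213 kb between Meg3 and Rian and 68.047 kb between Rian and Mirg. Annotated miRNA genes lie inside 4 members: 2 in Meg3, 7 in Rtl1 (6 of them on the other strand), 4 in Rian and 15 in Mirg. Rian also contains 13 annotated snoRNA genes. These libraries do not measure such small RNAs: the 69 miRNA genes of the cluster together had 3 counts over 42 libraries and the snoRNA genes had 0.

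The Meg3 promoter is shown because Meg3 is the most abundant member and the one whose start lies next to the control region. It is the RefSeq sequence on GRCm38.p6 at chr12:109540746-109541045, plus strand, from 250 bases before to 50 bases after the start, with 3 motifs in capitals: CCAAT, TGACGTCA (the cAMP response element) and the overlapping matches to TATATAA on both strands.
Meg3 promoter: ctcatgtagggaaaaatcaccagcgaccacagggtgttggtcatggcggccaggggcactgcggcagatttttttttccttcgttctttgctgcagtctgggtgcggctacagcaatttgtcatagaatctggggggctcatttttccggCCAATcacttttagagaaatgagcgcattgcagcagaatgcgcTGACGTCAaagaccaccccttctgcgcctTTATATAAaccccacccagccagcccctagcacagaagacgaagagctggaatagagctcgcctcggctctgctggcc
Counted from the start, CCAAT begins at -100, TGACGTCA at -57 and the plus-strand TATATAA at -27, and 53.7% of the bases are G or C. Searched on both strands, TGACGTCA was found in 1.79% of 32851 mouse promoters of this length, TATATAA in 3.24% and CCAAT in 37.4%. The RefSeq promoters of Rian and Dlk1 and the second Meg3 start held none of the 3 motifs, and that of Mirg held 1 CCAAT at -184. The Mirg window, chr12:109734731-109735030, lies inside the Mirg span given above, so -184 is counted from a RefSeq start within it. A match to these letters is a description of the sequence only.

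RefSeq lists 113 mature miRNA names in the cluster, with 104 different seeds, so most of them share no seed with another miRNA of the cluster. The 11 examples printed here lie in the members and were picked by hand so that each host gene is represented, with the seed (bases 2 to 8) in capitals. First come one from Meg3, 4 that lie across Rtl1 on the opposite strand, and one from Rian.
mmu-miR-770-5p: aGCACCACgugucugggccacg
mmu-miR-431-5p: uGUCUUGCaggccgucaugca
mmu-miR-433-3p: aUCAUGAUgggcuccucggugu
mmu-miR-127-3p: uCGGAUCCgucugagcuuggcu
mmu-miR-434-3p: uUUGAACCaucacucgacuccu
mmu-miR-370-3p: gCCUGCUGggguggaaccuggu
From Mirg, which holds 26 mature names, come 3 with a seed of their own and then a pair that shares the seed GGUUGCC.
mmu-miR-382-5p: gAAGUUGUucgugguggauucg
mmu-miR-134-5p: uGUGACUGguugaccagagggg
mmu-miR-154-5p: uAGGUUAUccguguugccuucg
mmu-miR-453: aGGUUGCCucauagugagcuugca
mmu-miR-496a-5p: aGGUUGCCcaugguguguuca

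Per length, Meg3 was the most abundant member, with a mean of 66.0 FPKM (fragments scaled for gene length and library total) over the 42 libraries. This was above 96.6% of the 54232 genes in the table, of which at most 16345 had 10 or more counts in a library. Rian followed at 16.1 FPKM, Dlk1 at 8.01, Mirg at 3.21 and Rtl1 at 1.10 FPKM. Counts per library were 2213 to 26109 for Meg3, 643 to 3873 for Rian, 50 to 487 for Mirg, 7 to 167 for Rtl1 and 5 to 1781 for Dlk1, so Meg3 and Rian were measured with the least counting error. Meg3 alone took between 0.0423% and 0.313% of all counts of a library. The members differed widely in how much they varied. The highest library had 2.79 times the CPM of the lowest for Rian, 8.66 times for Meg3, 13.6 times for Mirg, 28.1 times for Rtl1 and 379 times for Dlk1.

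**Figure D1:**
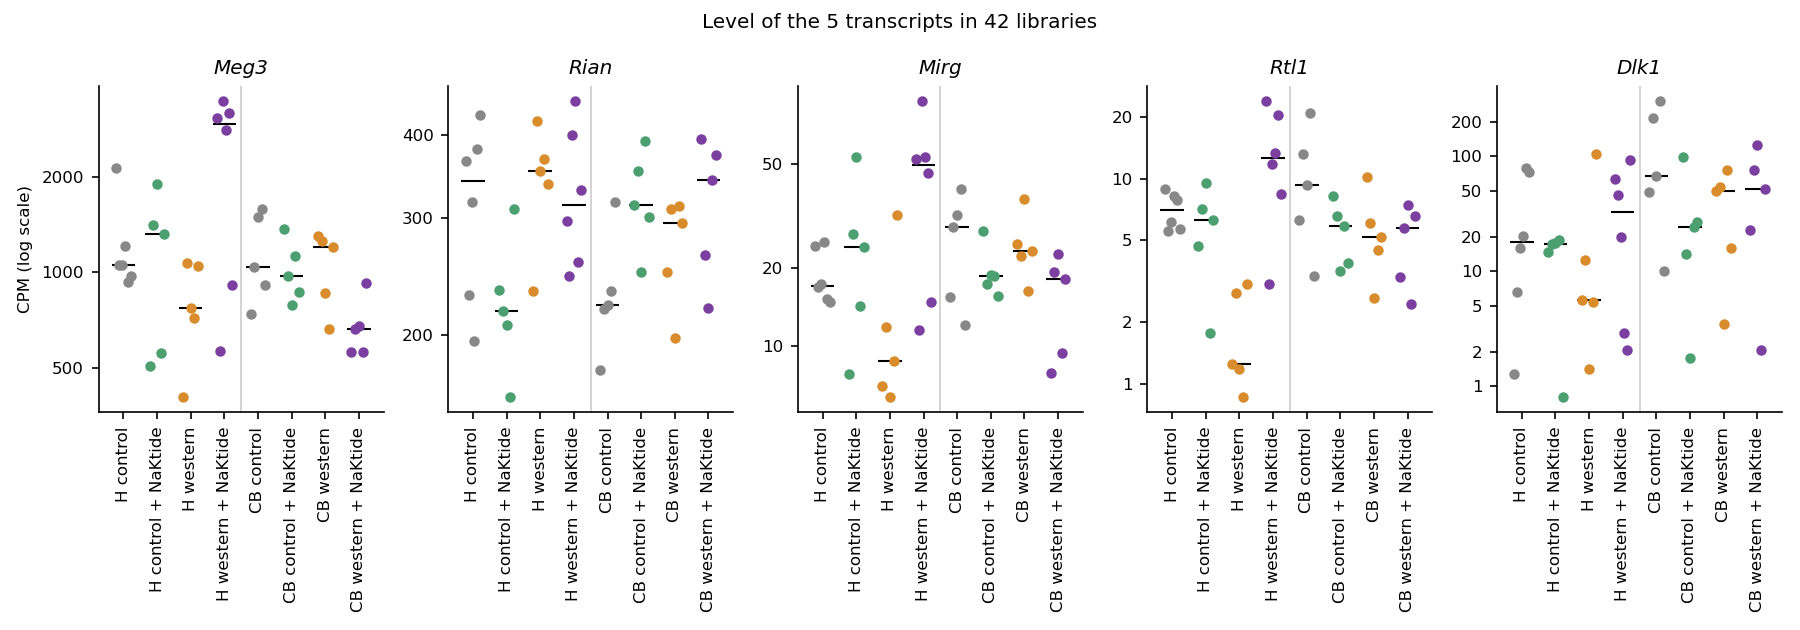
CPM of each of the 5 members on a log scale in the 8 groups, 1 point per library and a black line at the group median; H is the hippocampus label and CB the cerebellum label. Meg3, Mirg and Rtl1 have most of their highest libraries in the H western + NaKtide group, Rtl1 is lowest in the H western group, and Dlk1 spreads widely in nearly every group.

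Meg3 was highest in the hippocampus western diet with NaKtide group. Its 6 libraries held 3085, 567, 3488.5, 2812, 3194 and 916 CPM in the order of their replicate numbers. The 5 hippocampus western diet libraries held 403, 1073, 771, 718 and 1050 CPM. Libraries 1, 3, 4 and 5 of the NaKtide group lay above all 5 western diet libraries and were the 4 highest of the 42, while libraries 2 and 6 lay inside the western diet range. The means were 2344 ± 1265 CPM (SD, n = 6) with NaKtide and 803 ± 275 CPM (SD, n = 5) without, a ratio of 2.92. In edgeR's quasi-likelihood test over all genes the log2 fold change was 1.52 (SE 0.43), with an adjusted p of 0.0117.

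Mirg, the non-coding RNA at the distal end of the group, was highest within the NaKtide group in the same 4 libraries as Meg3. With NaKtide on western diet the hippocampus libraries held 52.2, 11.5, 86.9, 52.8, 46.1 and 14.8 CPM. Without NaKtide they held 7.06, 11.9, 6.38, 8.81 and 31.8 CPM. The 2 groups overlapped, again through libraries 2 and 6, and through western diet library 5, which at 31.8 CPM stood above the other 4 of its group. The means were 44.1 ± 27.9 CPM (SD, n = 6) and 13.2 ± 10.6 CPM (SD, n = 5), and the log2 fold change was 1.73 (SE 0.51, edgeR's quasi-likelihood test, adjusted p = 0.0139).

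Rtl1 had the largest fold change of the 5 in this comparison. The NaKtide libraries held 24.0, 3.05, 11.8, 13.4, 20.4 and 8.43 CPM and the western diet libraries 1.25, 2.78, 1.18, 0.856 and 3.07 CPM. Only library 2 of the NaKtide group, at 3.05 CPM, lay below the highest western diet library. The means were 13.5 ± 7.70 CPM (SD, n = 6) and 1.83 ± 1.02 CPM (SD, n = 5), 7.40 times apart. The fitted log2 fold change was 2.88 (SE 0.46), with an adjusted p of 0.00117 by edgeR's quasi-likelihood test. Rtl1 rests on few reads in the western diet group: 7 counts in library 4 give 0.856 CPM with an exact 95% Poisson interval of 0.344 to 1.76 CPM, and the 19 counts of library 5 give 1.85 to 4.79 CPM. These intervals cover counting error only. The strand setting of the counting is not given in the sources used here, so reads of Rtl1 and of the antisense miRNA precursor across it cannot be told apart.

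Rian did not follow the other non-coding RNAs. With NaKtide on western diet the hippocampus libraries held 297, 245, 399, 450, 257 and 331 CPM, and without it 233, 420, 353, 368 and 337 CPM. The groups overlapped over nearly their whole range, with means of 329.96 ± 80.9 CPM (SD, n = 6) and 342 ± 68.5 CPM (SD, n = 5). The log2 fold change was -0.08 (SE 0.21, edgeR's quasi-likelihood test, adjusted p = 0.800). As a result the ratio of Meg3 to Rian, both in CPM, ran from 1.73 to 3.12 in the western diet libraries and from 2.31 to 12.4 in the NaKtide libraries.

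Dlk1, the paternal gene at the proximal end, varied widely within both groups. The NaKtide libraries held 63.2, 46.2, 19.98, 2.90, 2.08 and 92.4 CPM and the western diet libraries 5.68, 12.6, 1.42, 5.38 and 106 CPM. The log2 fold change was 0.57 with an SE of 1.02 (edgeR's quasi-likelihood test, adjusted p = 0.689). NaKtide libraries 4 and 5, high in Meg3, were the lowest of their group in Dlk1, and library 6, highest in Dlk1, was low in Meg3.

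In all, 3 of the 5 members passed an adjusted p of 0.05 in this comparison, all higher with NaKtide, where 33.7% of 16442 genes passed in either direction, 17.4% passed as higher and 16.3% as lower. With so many genes called, the count of 3 is read against that share and not alone. Leaving out any 1 of the 22 hippocampus libraries kept Meg3, Mirg and Rtl1 past the threshold, with log2 fold changes of 1.34 to 1.72, 1.40 to 2.33 and 2.61 to 3.13.

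**Figure D2:**
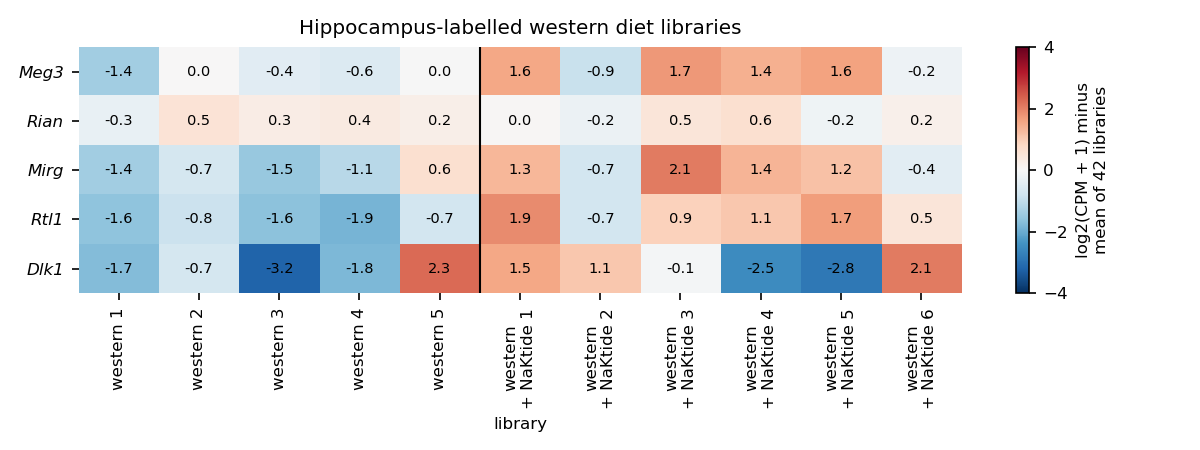
Heat map of the 5 members in the 11 hippocampus western diet libraries without and with NaKtide; each cell gives the difference of log2(CPM + 1) from the member's mean over the 42 libraries. NaKtide libraries 1, 3, 4 and 5 are above the mean for Meg3, Mirg and Rtl1 together, and the Dlk1 row does not follow them, with libraries 4 and 5 low.

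Other measures moved with these libraries. The percent of counts in 13 mitochondrial protein genes was 4.85 to 7.29 in the hippocampus western diet libraries, and in the NaKtide libraries it was 11.1, 5.91, 15.6, 8.92, 5.60 and 5.98 in replicate order. Libraries 1, 3 and 4 lay above every western diet library, and library 5, with 3194 CPM of Meg3, lay inside their range. Without libraries 1, 3 and 4, a setting chosen after seeing the data, Rtl1 kept a log2 fold change of 2.54 (edgeR's quasi-likelihood test, adjusted p = 0.0177). Meg3 was at 0.93 (edgeR, adjusted p = 0.175) and Mirg at 0.86 (edgeR, adjusted p = 0.265), both no longer past the threshold, with 3006 genes called in place of 5542. Libraries 1, 3 and 4 were also among the 4 libraries highest in Meg3. Leaving them out therefore took away high Meg3 values together with high mitochondrial shares, and this setting cannot tell the 2 apart. The part of the mitochondrial share in the result was not tested further.

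Some long non-coding RNAs from outside the cluster were also higher in this comparison. A list of 8 abundant non-coding RNAs (Malat1, Neat1, Miat, Snhg11, Snhg14, Rmst, Pantr1 and Mir124a-1hg) had a median log2 fold change of 0.76 with NaKtide on western diet, against 0.05 for all genes. Of the 8, 3 passed as higher and none as lower, beside 17.4% higher and 16.3% lower among all genes. These were Neat1, the scaffold of paraspeckles, at 1.37 (edgeR, adjusted p = 0.0128), Malat1, an RNA of nuclear speckles, at 1.08 (edgeR, adjusted p = 0.0207) and Snhg11 at 1.18 (edgeR, adjusted p = 0.0358). Their summed level in the NaKtide libraries was 2068, 632, 2865, 2910, 2183 and 744 CPM, so libraries 1, 3, 4 and 5 were high and 2 and 6 low, as for Meg3. Most of this sum was Snhg11 in the high libraries (1286, 1716, 1488 and 1316 CPM in libraries 1, 3, 4 and 5). Neat1 had another order: library 5 was lowest at 67.2 CPM, inside the western diet range, while libraries 2 and 6, at 136 and 132 CPM, lay above the highest western diet library at 124 CPM. In the western diet libraries the sum was 567 to 1107 CPM, with none of the 8 at 0 throughout. Over all 42 libraries the Pearson r of log2 levels with this sum was 0.91 for Meg3, 0.85 for Mirg and 0.66 for Rtl1; the libraries share their depth and their tissue makeup with every gene in them, and these r are descriptions.

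Gene length also went with the fold change in this comparison. Across genes the log2 fold change had an r of -0.40 with log2 exonic length, and its median was 0.48 in the shortest of 4 equal groups of genes and -0.28 in the longest. The exonic lengths of Meg3 (18089 bases) and Rian (18234 bases) both lie at the 99.0th percentile, and those of Mirg and Rtl1 at the 81.2nd and 75.2nd. With the length trend taken out, Rian was at 0.43 (edgeR, adjusted p = 0.0191), a change of sign and of call.

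Marker lists of brain cell types differed between the same hippocampus western diet groups. Summed levels of 8 dentate granule markers were 153 to 556 CPM (lowest to highest library) without NaKtide and 71.7 to 180 CPM with it, and 5 of the 8 passed as lower. For 9 microglia markers the sums were 276 to 444 CPM without and 483 to 671 CPM with NaKtide, without overlap, and 6 of 9 passed as higher. The 11 striatum markers summed to 209 to 583 CPM without and 272 to 5352 CPM with NaKtide, and 6 of 11 passed as higher. Of 10 pyramidal neuron markers 1 passed as lower, with sums of 1756 to 3835 CPM without and 509 to 5461 CPM with NaKtide. The 8 markers of neurons in general summed to 5013 to 5781 CPM without and 3295 to 4952 CPM with NaKtide, so every NaKtide library lay below every western diet library, and 4 of the 8 passed as lower. None of these markers was at 0 in every library of a group. Among all single genes in this comparison 17.4% passed as higher and 16.3% as lower. Groups without overlap were found for 5.83% of single genes as higher and 7.41% as lower with NaKtide. These shares are for single genes and give no rate for the sum of a list. In such tissue libraries, fewer cells of a type and less RNA per cell cannot be told apart, and the part of tissue makeup in the member values was not tested.

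Under the cerebellum label, Meg3 and Mirg had lower means with NaKtide on western diet than without it, but neither passed the test. Meg3 held 1307, 1259, 864, 663 and 1202 CPM on western diet and 559, 663, 677, 559 and 924 CPM with NaKtide. The groups overlapped, and 4 of 5 NaKtide libraries lay below 4 of 5 western diet libraries. The log2 fold change was -0.65 (SE 0.23), but no gene in the table passed after adjustment (edgeR's quasi-likelihood test, adjusted p = 1.000 for Meg3; 679 of 16338 genes had an unadjusted p under 0.05, and DESeq2 called 1). Mirg, at 24.7, 22.1, 36.7, 16.2 and 23.2 CPM without and 7.94, 19.2, 22.6, 9.42 and 18.0 CPM with NaKtide, had a log2 fold change of -0.67 (SE 0.33). Rtl1, Rian and Dlk1 were at -0.17, 0.22 and 0.47.

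The difference between the labels in this effect was tested itself, in a fit over the 42 libraries added after seeing the data. It was 2.19 on the log2 scale for Meg3 (SE 0.52, edgeR's quasi-likelihood test, adjusted p = 0.0141), 2.42 for Mirg (SE 0.64, edgeR, adjusted p = 0.0207) and 3.07 for Rtl1 (SE 0.65, edgeR, adjusted p = 0.0140), each higher under the hippocampus label. For Rian it was -0.28 (SE 0.29, edgeR, adjusted p = 0.532) and for Dlk1 0.07 (SE 1.46, edgeR, adjusted p = 0.981). Among 17088 genes 8.84% passed in either direction and 4.39% as higher. Without cerebellum western diet with NaKtide replicate 4, Mirg was at 2.29 and missed the threshold (edgeR, adjusted p = 0.0532).

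**Figure D3:**
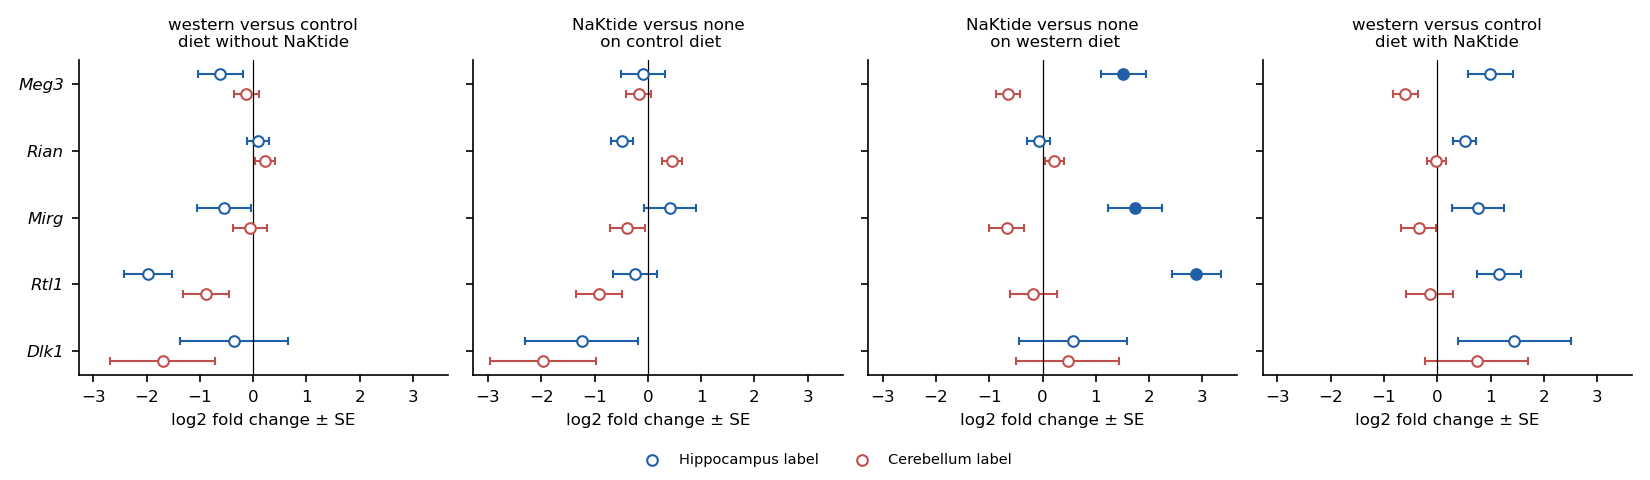
Log2 fold change with its standard error for the 5 members in 4 comparisons, blue for the hippocampus label and red for the cerebellum label; filled points have an adjusted p under 0.05. The 3 filled points are Meg3, Mirg and Rtl1 for NaKtide on western diet under the hippocampus label.

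Western diet was compared with control diet first without NaKtide. Rtl1 was the member that stood apart. In hippocampus control its 6 libraries held 8.93, 5.56, 6.16, 8.21, 7.84 and 5.71 CPM, all above the highest western diet library at 3.07 CPM. The mean was 7.07 ± 1.44 CPM (SD, n = 6) on control and 1.83 ± 1.02 CPM (SD, n = 5) on western diet, a ratio of 0.258. Its log2 fold change was -1.98 (SE 0.45), and the adjusted p of 0.0787 missed the threshold in edgeR's quasi-likelihood test. No gene passed in this comparison, whereas 4046 of 16442 (24.6%) had an unadjusted p under 0.05 and DESeq2 called 825. Groups that did not overlap, with western diet lower, were found for 1.2% of genes. Rtl1 passed under DESeq2 (adjusted p = 0.00483) and without hippocampus control replicate 6 (-2.03, edgeR, adjusted p = 0.0415) or hippocampus western diet replicate 5 (-2.22, edgeR, adjusted p = 0.0403).

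The comparison of diets and that of NaKtide on western diet share the 5 hippocampus western diet libraries, so low Rtl1 values there enter both. Against hippocampus control, the western diet with NaKtide group had a mean of 13.5 CPM for Rtl1 beside 7.07 CPM. The remaining members had log2 fold changes of -0.62 (Meg3, SE 0.42), -0.55 (Mirg, SE 0.50), 0.10 (Rian, SE 0.21) and -0.36 (Dlk1, SE 1.01) for western against control diet without NaKtide. Their adjusted p by edgeR's quasi-likelihood test were 0.369 to 0.855. Meg3 on control diet held 2136, 1054, 1052, 1215, 934 and 972 CPM, of which library 1 stood above the other 5.

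With NaKtide in both groups, western diet against control diet gave log2 fold changes of 1.00 for Meg3 (SE 0.42), 1.16 for Rtl1 (SE 0.41), 0.51 for Rian (SE 0.21), 0.77 for Mirg and 1.44 for Dlk1 under the hippocampus label, and none passed (edgeR, adjusted p from 0.390 to 0.595). No gene of the table passed there either, with 1756 at an unadjusted p under 0.05 and 30 called by DESeq2. The hippocampus control with NaKtide libraries held 505, 1413, 1911, 556 and 1319 CPM of Meg3, and 4.69, 7.11, 9.52, 1.76 and 6.26 CPM of Rtl1. In both genes libraries 1 and 4 were low and 3 was high. NaKtide on control diet gave -0.10 for Meg3, 0.42 for Mirg, -0.25 for Rtl1, -0.49 for Rian (SE 0.21) and -1.24 for Dlk1 (SE 1.06), with 0 of 16442 genes called (2720 at an unadjusted p under 0.05, DESeq2 called 1).

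The diet by NaKtide interaction asks whether the NaKtide difference depends on diet. Under the hippocampus label it was 3.13 for Rtl1 (SE 0.61, edgeR's quasi-likelihood test, adjusted p = 0.0823), with the 6th smallest p of 16442 genes, none of which passed in edgeR; 2399 had an unadjusted p under 0.05 and DESeq2 called 182, Rtl1 among them (DESeq2, adjusted p = 0.00119). It passed in edgeR without hippocampus control with NaKtide replicate 4 (2.91, adjusted p = 0.0470) or hippocampus western diet with NaKtide replicate 2 (3.33, adjusted p = 0.0401). For Meg3 the interaction was 1.61 (SE 0.59, edgeR, adjusted p = 0.230), for Mirg 1.31 (SE 0.70, edgeR, adjusted p = 0.397), for Dlk1 1.81 and for Rian 0.42.

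No member passed in the cerebellum comparisons, in which at most 1 gene did (0.00612% of 16338). Rtl1 held 6.30, 13.2, 9.32, 21.0 and 3.35 CPM on control diet and 10.2, 6.06, 2.62, 4.51 and 5.17 CPM on western diet, with overlapping groups and a log2 fold change of -0.89 (SE 0.43, edgeR, adjusted p = 0.261). Dlk1 held 49.3, 217, 68.1, 304 and 10.1 CPM on control diet and 49.7, 54.5, 3.499, 76.0 and 15.9 CPM on western diet, a log2 fold change of -1.70 (SE 0.98, edgeR, adjusted p = 0.345). Libraries 2 and 4 of cerebellum control were the 2 highest in Dlk1 of all 42. NaKtide on control diet gave 0.46 for Rian (SE 0.19, edgeR, adjusted p = 0.124), with 177, 219, 222, 233 and 317 CPM without and 314, 353, 249, 392 and 301 CPM with NaKtide. Without cerebellum control replicate 5, Rian passed at 0.59 (edgeR, adjusted p = 0.0284) and Rtl1 at -1.15 (edgeR, adjusted p = 0.0425), while the genes called in that comparison went from 1 to as many as 4386 when single libraries were left out. Western against control diet with NaKtide in both groups gave -0.60 for Meg3 (SE 0.23, edgeR, adjusted p = 0.999), with 0 genes called and 396 at an unadjusted p under 0.05. Averaged over the 4 conditions, the hippocampus label minus the cerebellum label was 0.41 for Meg3 (SE 0.18, edgeR, adjusted p = 0.335) and -1.11 for Dlk1 (SE 0.52, edgeR, adjusted p = 0.366), with 0.0468% of genes called.

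Ordered by their means, the groups ran into each other for every member. Meg3 went from 2344 ± 1265 CPM in hippocampus western diet with NaKtide (SD, n = 6) through 1227 ± 455 in hippocampus control (SD, n = 6), 1156 ± 373 in cerebellum control, 1141 ± 601 in hippocampus control with NaKtide, 1059 ± 282 in cerebellum western diet, 1026 ± 229 in cerebellum control with NaKtide and 803 ± 275 in hippocampus western diet to 677 ± 149 CPM in cerebellum western diet with NaKtide (SD, n = 5 each). Rian spanned only 226 ± 53.9 CPM (hippocampus control with NaKtide) to 342 ± 68.5 CPM (hippocampus western diet; SD, n = 5 each). Mirg spanned 13.2 ± 10.6 CPM (hippocampus western diet, SD, n = 5) to 44.1 ± 27.9 CPM (hippocampus western diet with NaKtide, SD, n = 6), with the other 6 groups between 15.4 and 25.5 CPM. Dlk1 spanned 13.8 ± 7.41 CPM in hippocampus control with NaKtide to 129.7 ± 125 CPM in cerebellum control (SD, n = 5 each). The libraries of all neighbours in these orders overlapped, and the only step larger than the larger SD of its pair was for Rtl1, from 5.11 ± 2.16 CPM in cerebellum western diet with NaKtide to 1.83 ± 1.02 CPM in hippocampus western diet (SD, n = 5 each). In a test for any difference among the 8 groups Meg3, Rtl1 and Mirg passed (edgeR, adjusted p = 0.00616, 0.00344 and 0.0340) and Rian and Dlk1 did not (0.0868 and 0.243), beside 28.7% of all genes. Mirg lost this call in 9 removals of a single library (edgeR, adjusted p from 0.0508 to 0.138): cerebellum control replicate 2, hippocampus western diet replicates 1 to 4, and hippocampus western diet with NaKtide replicates 1, 3, 4 and 5. Rian gained it in 4 such removals, of cerebellum control replicate 5, cerebellum western diet with NaKtide replicate 3, hippocampus control replicate 4 and hippocampus control with NaKtide replicate 5 (edgeR, adjusted p from 0.0392 to 0.0456), and under DESeq2 (adjusted p = 0.0485).

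The members did not vary as one unit over the 42 libraries. Pearson's r of log2(CPM + 1) was 0.85 between Meg3 and Mirg, 0.76 between Meg3 and Rtl1, and 0.76 between Mirg and Rtl1. The Rtl1 values are reads over the Rtl1 gene, whose strand is not known. After the group means were taken out these were 0.83, 0.76 and 0.70. Meg3, Mirg and Rtl1 were all above their own means in 14 libraries and all below in 14 of the 42. Meg3 with Rian had an r of 0.20, Rian with Mirg -0.11, and Meg3 with Dlk1 -0.05. These pooled values differed by label. In the same order they were -0.13, -0.58 and 0.39 over the cerebellum libraries, and 0.30, 0.08 and -0.15 over the hippocampus libraries. Rtl1 with Dlk1, the 2 paternal genes, had an r of 0.36, at 0.83 over the 20 cerebellum libraries and 0.11 over the 22 hippocampus libraries. The ratio of Meg3 to Rian in CPM ranged from 1.42 to 12.4 and that of Meg3 to Mirg from 23.5 to 121. All these points share library depth and tissue makeup.

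**Figure D4:**
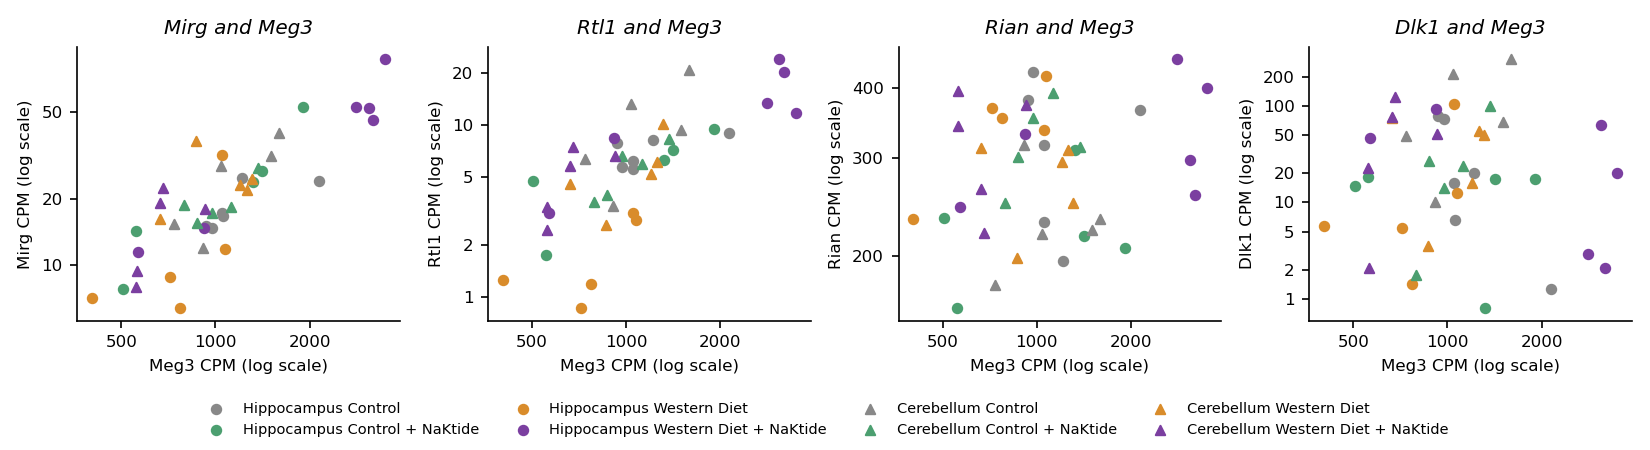
CPM of Rian, Mirg, Rtl1 and Dlk1 against CPM of Meg3, both on log scales, 1 point per library and coloured by group. Mirg and Rtl1 rise with Meg3 over the 42 libraries, whereas Rian and Dlk1 show no such slope (r = 0.20 and -0.05).

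The 5 genes most like each member, by Pearson's r of log2(CPM + 1) over 42 libraries among 16626 genes, differed from member to member. For Meg3 they were Snhg11 (0.95), Pabpn1 (0.93), Fam193b (0.93), Iqce (0.92) and Lrrc45 (0.92), with Mirg 51st and Rtl1 178th. For Mirg they were Zfp692 (0.94), Safb2 (0.93), Clasrp (0.93), Tmc4 (0.92) and Mettl17 (0.92). For Rtl1 they were Plppr3 (0.86), Zfr2 (0.80), Hdac3 (0.79), Cnot10 (0.78) and Map4k1 (0.77), with Meg3 12th and Mirg 15th. For Rian they were Krit1 (0.86), Trip12 (0.84), Myo9a (0.83), Csmd3 (0.82) and Ehbp1 (0.82). For Dlk1 they were Arhgap36 (0.92), Baiap3 (0.92), Dgkk (0.90), Zcchc12 (0.89) and AW551984 (0.89), and no list has a gene in common with another.

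Dlk1 levels went with those of imprinted genes elsewhere in the genome and with markers of other brain regions. Its r was 0.86 with the summed level of 24 paternally expressed imprinted genes outside the cluster and 0.84 with that of the maternally expressed ones. It was 0.77 with the summed level of 11 midbrain dopamine markers, 0.74 with that of 20 hypothalamus markers and -0.53 with that of 10 pyramidal neuron markers. The hypothalamus list holds Baiap3, which is also among the genes most like Dlk1 named above. All lists were drawn up with earlier results of these data known, so these r are descriptions. In the hippocampus western diet group, library 5 held 106 CPM of Dlk1 where the others held 1.42 to 12.6 CPM, and 540 CPM of the dopamine markers where the others held 100 to 141 CPM. None of the 11 dopamine markers was at 0 throughout that group, whereas the hypothalamus marker Kiss1 was at 0 in every library of all 8 groups. Some other hippocampus libraries did not pair high Dlk1 with high dopamine markers. Hippocampus western diet with NaKtide library 6 held 92.4 CPM of Dlk1 and 89.6 CPM of the dopamine markers. Hippocampus control library 6 held 73.8 CPM of Dlk1 and 111 CPM of these markers. In hippocampus western diet with NaKtide library 3, Dlk1 was at 19.98 CPM and the dopamine markers at 281 CPM. Dlk1 is known to be made in midbrain dopamine and hypothalamic neurons. Whether such cells are the source of the Dlk1 reads was not tested.

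**Figure D5:**
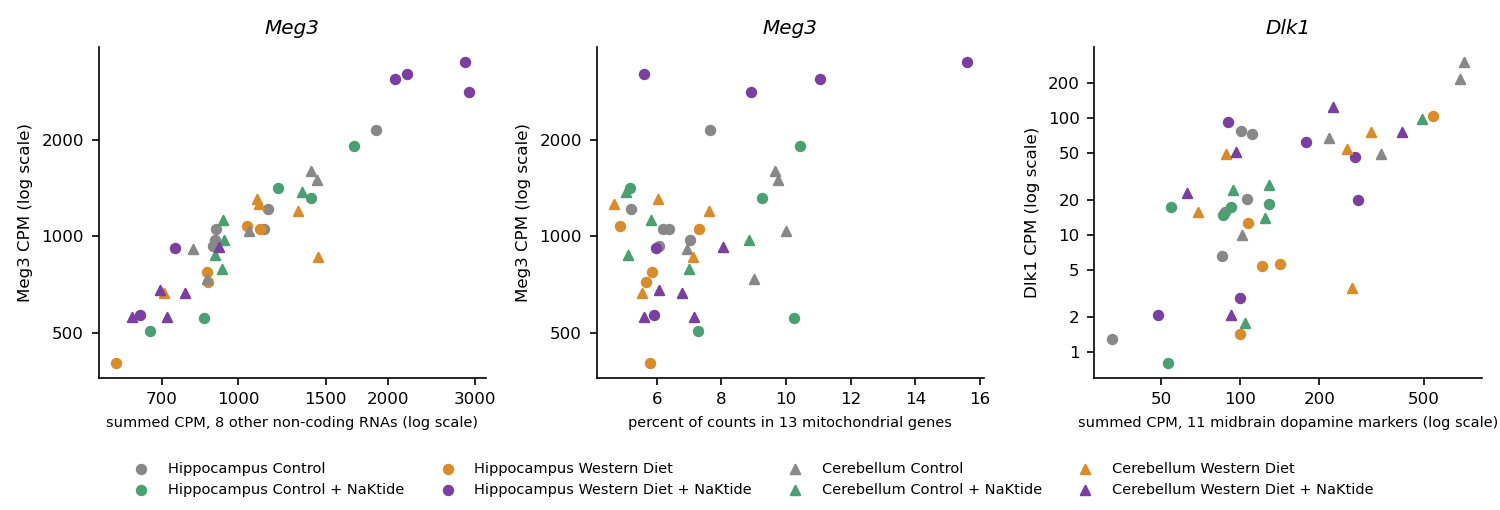
Meg3 CPM against the summed CPM of 8 other non-coding RNAs and against the percent of counts in 13 mitochondrial genes, and Dlk1 CPM against the summed CPM of 11 midbrain dopamine markers, 1 point per library. Meg3 follows the other non-coding RNAs (r = 0.91), the 4 libraries highest in Meg3 span 5.60 to 15.6 percent mitochondrial counts, and Dlk1 follows the dopamine markers (r = 0.77).

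Neighbours of the members were followed in the comparison with most calls. For NaKtide on western diet under the hippocampus label, Begain, the gene next to Dlk1, had 201 ± 70.8 CPM with and 133 ± 27.2 CPM without NaKtide (SD, n = 6 and 5; log2 fold change 0.58, edgeR, adjusted p = 0.0309). The pseudogene Gm3379 had 207 ± 29.8 and 117 ± 30.4 CPM (SD, n = 6 and 5; 0.82, edgeR, adjusted p = 0.00534), with no overlap of the groups; 5.83% of genes were higher without overlap there, and reads of a processed pseudogene can come from its parent gene. Dio3, the paternal gene at the far end, which encodes the enzyme that inactivates thyroid hormone, had 3.60 ± 3.13 and 1.67 ± 0.895 CPM (SD, n = 6 and 5; 1.09, edgeR, adjusted p = 0.291). Of 11 tested neighbours in a list that also reaches past the cluster, 2 passed as higher (Begain and Evl at 0.28, edgeR, adjusted p = 0.0471) and 1 as lower (Yy1 at -0.52, edgeR, adjusted p = 0.00435). That list does not hold Gm3379. Among all genes 17.4% passed as higher and 16.3% as lower, and the counts of the list are read beside those shares. Of the 3 measured genes within the cluster that are not members, Begain and Gm3379 passed as higher and Dio3 did not. So few genes cannot show whether the neighbours differ from the table as a whole.

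Imprinted genes elsewhere in the genome were counted in the same comparison. Of 21 tested paternally expressed genes outside the cluster, 1 passed as higher, the non-coding RNA Kcnq1ot1 at 1.70 (edgeR, adjusted p = 0.0176), and 1 as lower, Zrsr1 at -0.39 (edgeR, adjusted p = 0.0268). Of 13 maternally expressed genes 1 passed as higher, H13 at 0.48 (edgeR, adjusted p = 0.0228), and 3 as lower, among them the ubiquitin ligase Ube3a at -0.73 (edgeR, adjusted p = 0.00816). Medians were 0.05 and -0.15, beside 0.05 for all genes. Among all genes 17.4% passed as higher and 16.3% as lower. Of 16 tested chromatin and imprint maintenance factors, none passed as higher and 3 as lower, among them Suz12, a subunit of the Polycomb complex PRC2, at -0.90 (edgeR, adjusted p = 0.00431) and the insulator protein Ctcf at -0.51 (edgeR, adjusted p = 0.0161); 3 of 16 is near the 16.3% of all genes called lower.

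Relatives of Rtl1 and the pathway of Dlk1 were counted in the same comparison. Of 8 tested genes of the retrotransposon-derived family, 3 passed as higher, Rtl8a at 0.89 (edgeR, adjusted p = 0.00724), Rtl8b at 0.60 (edgeR, adjusted p = 0.00326) and Rtl8c at 0.56 (edgeR, adjusted p = 0.0172), and 1 as lower. The 3 Rtl8 genes are near-identical copies, so how the counting split their reads is uncertain. Of 26 Notch pathway genes 1 passed as higher, the target gene Hes5 at 1.30 (edgeR, adjusted p = 0.00150), and 6 as lower, among them the protease Adam10 at -1.20 (edgeR, adjusted p = 0.00255) and the ligase Mib1 at -0.999 (edgeR, adjusted p = 0.00491), with a median of 0.04. Among all genes 17.4% were called higher and 16.3% lower. In the other within-label comparisons no gene of these lists passed in edgeR.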

How the data were processed

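RNA-seq of 42 mouse brain libraries was used. Per the labels, libraries came from a stranded mRNA kit. Per the submitters' processing notes, Trimmomatic 0.38, HISAT2 2.1.0 and DESeq2 1.20.0 were used with GRCm38; no source used here names the read counter, its strand setting or the annotation. The authors deposited raw counts per gene, which are the values tested. The deposited normalized counts, a signal scaled by the authors, equal the raw counts divided by 1 factor per library. The deposited FPKM values equal these divided by a gene's length, and served to compare levels between genes. Of the value columns, 0 had no sample.

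Counts were scaled by TMM and tested with edgeR 4.0.16 (quasi-likelihood, R 4.3.3, limma 3.58.1, Benjamini-Hochberg adjustment over all genes passing edgeR's low-count filter, two-sided, threshold 0.05). The same fit was also run on simulated counts drawn with the means and spread of these data. The 4 hippocampus and the 4 cerebellum groups were fitted apart, and all 8 together for differences between labels. CPM, used with a pseudocount of 1 on the log2 scale, is the count per edgeR's scaled library. Library totals of 4669374 to 9521002 counts limit the precision of Rtl1 and Dlk1 most. Alternatives were DESeq2 1.42.0, its size factors, no filter, the compared groups only, a replicate block, removal of the length trend, 2 surrogate variables (sva 3.50.0), and libraries left out. Tables were made with Python 3.11.15, pandas 2.3.3 and numpy 2.4.6.

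The members and all gene lists were chosen with earlier results of these data known. Named beside the members are called genes of the cluster's neighbours, the 3 genes of smallest p in a list, and the 5 genes most like a member among those with a mean of at least 1 CPM. Coordinates come from GENCODE M21 and sequences from RefSeq (GRCm38.p6); Rtl1 has no promoter shown. One called gene of a list is not reported here.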

Additional observations from a re-analysis of the deposited data

Results flagged for a closer look

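Single libraries stood apart from the rest of their group in 6 of 40 sets of a member and a group, by Dixon's test on CPM. Chance gives about 1 in 20 for normal values in independent sets. These sets share libraries and CPM were not put on a log scale, so the count cannot be read against that rate. Meg3 was at 2136 CPM in hippocampus control replicate 1, with the other 5 at 934 to 1215 CPM. Mirg was at 27.7 CPM in cerebellum control with NaKtide replicate 1, with the others at 15.6 to 18.8 CPM, and at 31.8 CPM in hippocampus western diet replicate 5, with the others at 6.38 to 11.9 CPM. Dlk1 was at 99.1 CPM in the same cerebellum control with NaKtide replicate 1, where the others held 1.77 to 26.7 CPM. It was at 106 CPM in hippocampus western diet replicate 5, where the others held 1.42 to 12.6 CPM. In hippocampus control with NaKtide replicate 5 it was at 0.803 CPM, from 5 counts, where the others held 14.8 to 18.6 CPM.

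The effect of NaKtide on western diet differed between the hippocampus and cerebellum labels for 3 members, in a test of the difference itself added after seeing the data: by 2.19 on the log2 scale for Meg3, 2.42 for Mirg and 3.07 for Rtl1 (edgeR's quasi-likelihood test, adjusted p = 0.0141, 0.0207 and 0.0140; 8.84% of genes passed).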

How the results depend on the processing

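For NaKtide on western diet under the hippocampus label, 3 members were called under each other method, filter and scaling and without any single library, except with the length trend removed, where Rian reversed to 0.43 and 4 were called. Without the 3 NaKtide libraries of high mitochondrial share, which were also among the highest in Meg3, only 1 member (Rtl1) was called. For western against control diet in hippocampus, where the count was 0, 1 member (Rtl1) was called under DESeq2, with the compared groups only, with 2 surrogate variables, and without 4 libraries holding over 5 Xist counts (adjusted p = 0.00483, 0.0330, 0.0119 and 0.0224 in that order, the last 3 by edgeR). For the hippocampus interaction, 1 member (Rtl1) was called under DESeq2 and with 2 surrogate variables. Leaving out single libraries gave 0 to 1 members in both of these comparisons, 0 to 2 for NaKtide on control diet in cerebellum, 2 to 3 for the difference between labels and 2 to 4 for any difference among the 8 groups. The cause of these changes was not tested. Counts over all genes moved more: for the hippocampus diet comparison 0 became 825 under DESeq2, 60 with the compared groups only, 2953 with surrogate variables, 2209 without the Xist libraries, 39 with control replicates 5 and 6 summed, 8 without the filter, and up to 515 without 1 library. DESeq2 called 30 for diet with NaKtide and 182 for the interaction in hippocampus (35 with surrogate variables; 0 in edgeR), 154, 1198 and 17 for diet, NaKtide on control diet and the interaction in cerebellum (1 each in edgeR), and 90 between labels (8 in edgeR; 0 with the replicate block or surrogate variables, 43 without the Xist libraries). NaKtide on western diet in hippocampus called 3807 to 6116 genes without 1 library. The difference between labels called 1510 genes, 794 without the filter and 416 to 4089 without 1 library. A replicate block changed no member call and raised that count to 2324. Same-numbered libraries of different groups within a label had a median correlation of deviations of -0.06 in cerebellum and -0.11 in hippocampus. Same-numbered libraries were not compared between the hippocampus and cerebellum labels. Whether a number marks the same mouse under both labels was therefore not tested.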
